A study of Mus musculus with 4 samples.

Results

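The mitochondrial ribosomal protein genes, taken as the genes whose symbol begins with Mrpl or Mrps followed by a number, made up 60 of the 11993 genes with measured open chromatin in subcutaneous white fat of the mouse. The rule reads only the gene symbol and no measured value, while the family itself was picked with earlier results of these data known. Of the 60, 39 encode proteins of the large mitochondrial ribosomal subunit and 20 proteins of the small one, and Mrps36 carries a ribosomal name but encodes a subunit of the oxoglutarate dehydrogenase complex. All 60 passed the filter on low values, a height above 0 in 2 or more libraries. Another 16 annotated protein-coding genes of the same name pattern were not analysed here.

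Open chromatin was mapped by ATAC-seq (a transposase, Tn5, inserts sequencing adapters where DNA is accessible) on nuclei of frozen fat from wild-type (WT) mice. There were 4 libraries, female 1 and female 2 against male 1 and male 2, and sex was the only factor that the labels vary; strain and age are not given there. Nothing in the labels tells whether both libraries of a sex stem from different animals, and the p-values therefore measure only the spread between these samples, which may be technical. Each value is a peak height, the deposited number of overlapping tags at a peak after a scaling factor per library, averaged over the open regions linked to a gene.

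Mitochondria hold their own ribosome, which makes the few proteins encoded by mitochondrial DNA, all of them parts of the respiratory chain or ATP synthase. Its RNAs come from mitochondrial DNA, whereas all of its proteins are encoded in the nucleus, made in the cytosol and imported. Some of these proteins descend from bacterial ribosomal proteins and others were added in the mitochondrial lineage. Nuclear genes for mitochondrial proteins are often described as targets of the transcription factors NRF1, GABPA (an ETS factor, also called NRF2) and YY1, and most ribosomal protein genes are expressed in nearly all cell types.

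The libraries differed over the whole gene table, which bears on every comparison of the sexes. Peak calling marked 10238 intervals in female 1 and 8022 in female 2, against 5484 in male 1 and 4049 in male 2. The median height over all genes was 38, 30.2, 24 and 14.7 in the same order, and the intervals of male 2 were wider, with a median of 284 bp against 160 to 171 bp in the others. Of 10 markers of fat cells 6 had a measured region, among them Pparg, Cebpa and Lipe, and Plin1, Adipoq, Fabp4 and Lep were not analysed here. Read totals per library are not known here. In tissue nuclei, fewer cells of a type and less open chromatin per cell cannot be told apart.

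Short sequence motifs of known mitochondrial regulators recurred in the promoters of these genes, and 4 promoters are shown first. They belong to Mrpl18, Mrps18b and Mrps16, the 3 members with the highest mean heights that had a peak in every library, a region at the start and at least 2 of the searched motifs, and to Mrps27, the member with the most negative male minus female difference. Mrpl18 is a large subunit protein, Mrps18b and Mrps16 are small subunit proteins with bacterial relatives, and Mrps27 is a pentatricopeptide repeat protein of the small subunit. Each is written 5' to 3' in the direction of the gene, from 250 bases before the RefSeq start (position 0) through 49 after it, from the RefSeq promoters of GRCm38.p6. They lie at chr17:12916042-12916341 on the minus strand, chr17:35916391-35916690 minus, chr14:20393441-20393740 minus and chr13:99344536-99344835 plus. Capitals mark matches to any of 9 searched motifs on either strand.
Mrpl18: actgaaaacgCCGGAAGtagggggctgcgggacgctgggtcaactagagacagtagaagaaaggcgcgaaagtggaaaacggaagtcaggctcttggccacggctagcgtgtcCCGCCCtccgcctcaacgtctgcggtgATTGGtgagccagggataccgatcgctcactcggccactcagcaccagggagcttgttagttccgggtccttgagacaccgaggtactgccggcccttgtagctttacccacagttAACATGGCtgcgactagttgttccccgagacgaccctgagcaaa
Mrps18b: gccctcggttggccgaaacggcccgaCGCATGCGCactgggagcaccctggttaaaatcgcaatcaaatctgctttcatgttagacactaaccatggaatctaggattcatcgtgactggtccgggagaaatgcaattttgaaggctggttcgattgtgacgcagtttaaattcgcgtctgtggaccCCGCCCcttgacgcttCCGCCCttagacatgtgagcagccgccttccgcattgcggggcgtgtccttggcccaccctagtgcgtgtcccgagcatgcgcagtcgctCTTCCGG
Mrps16: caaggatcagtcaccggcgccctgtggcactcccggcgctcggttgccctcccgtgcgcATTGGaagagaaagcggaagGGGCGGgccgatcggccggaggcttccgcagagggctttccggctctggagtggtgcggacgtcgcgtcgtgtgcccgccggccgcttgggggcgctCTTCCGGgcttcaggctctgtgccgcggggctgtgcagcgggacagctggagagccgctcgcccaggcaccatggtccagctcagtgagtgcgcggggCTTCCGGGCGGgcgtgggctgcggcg
Mrps27: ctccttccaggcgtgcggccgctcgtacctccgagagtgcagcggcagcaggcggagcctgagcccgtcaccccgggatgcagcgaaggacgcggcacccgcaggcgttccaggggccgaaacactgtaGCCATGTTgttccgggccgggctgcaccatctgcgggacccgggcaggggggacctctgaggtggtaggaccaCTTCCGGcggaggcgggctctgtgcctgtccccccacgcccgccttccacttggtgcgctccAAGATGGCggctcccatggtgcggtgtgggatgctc

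Mrpl18 held an ETS-type match (CCGGAAG) at -240, a reversed GC box (GGGCGG) at -137, a reversed CCAAT box at -110 and a YY1-type match (AANATGGC) at 6. Mrps18b held a reversed NRF1-type match (GCGCANGCG) at -224, reversed GC boxes at -63 and -47 and a reversed ETS-type match at 43. In Mrps16 a reversed ETS-type match at 24 overlapped a GC box at 29, another reversed one stood at -74, and a reversed CCAAT box and a GC box stood at -191 and -171. Mrps27 held YY1-type matches at -121 (reversed) and 14 and a reversed ETS-type match at -48. For Mrps18b and Mrps16 the RefSeq start lay 71 and 65 bp from the start in the deposited gene table, so their positions depend on the start used. Among members counted below but not shown here, it lay farther away in Mrps21 (895 bp), Mrpl20 (741 bp), Mrps10 (309 bp) and Mrpl48 (305 bp).

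A match to the YY1-type motif in the gene's own direction, just downstream of the start, recurred in 13 of the 53 members with a promoter in the reference (24.5%). The same was found in 4.01% of the 6740 promoters of genes with a region at the start (open promoters), in 1.38% of all 32851 promoters, in 5.36% of 56 cytosolic ribosomal protein promoters and in 11.9% of 67 promoters of respiratory chain and ATP synthase genes. The 13 matches began between positions 6 and 36, with a median of 18, and no member had the motif on the opposite strand after the start. Unlike the open promoters, the 53 include Mrpl36, Mrpl49, Mrpl53, Mrps5 and Mrps18a, which had no region within 1000 bp of the start. Of these, Mrpl49 and Mrps18a are among the 13. The windows below show the 13 in order of position, 30 bases each, aligned on the motif in capitals, because the shared letters carry this observation.
Mrpl18: agctttacccacagttAACATGGCtgcgac
Mrpl27: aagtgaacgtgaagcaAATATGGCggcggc
Mrps18a: cggtcaggtgcgttccAAGATGGCggccct
Mrps27: ccacttggtgcgctccAAGATGGCggctcc
Mrps30: cgggtcgcggcgggcgAAAATGGCggcggc
Mrpl49: actcagttgaggcgccAAGATGGCagcagc
Mrps7: ggtcctgacagcggccAAGATGGCtgcccc
Mrpl51: tacctgggtaaggcccAAAATGGCtcctct
Mrpl11: ccttcacctctgacccAAAATGGCcgcgcc
Mrpl35: accgtaggcaggctgcAAGATGGCggcttc
Mrpl37: agtccctgcacgggcaAAGATGGCggcgtc
Mrpl42: ggacccagattgaagcAAGATGGCgagcgc
Mrps24: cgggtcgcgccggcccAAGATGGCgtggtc

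The flanks of these windows differed in part, but GGC directly followed the motif in Mrpl27, Mrps18a, Mrps27, Mrps30, Mrpl35 and Mrpl37. The fixed letters of the motif are shared by construction. At its free position G was the most frequent base. The first and last windows lie at chr17:12916072-12916101 (Mrpl18, minus strand) and chr11:5707652-5707681 (Mrps24, minus strand). Large and small subunit members were both among them, from Mrpl11, whose protein sits at the factor-binding stalk base, to Mrps7, a homologue of bacterial S7. The motif contains ATG, and the place of these letters in the coding sequence was not used here. The core ATGGC alone, in the same stretch and direction, stood in 37.7% of member promoters and 9.94% of open promoters, and without the AAN before it in 13.2% and 5.93%. The stretch downstream of the start was examined after the positions of the matches had been seen, and no test was made.

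Over the whole 300 bases, on either strand, 36 of the 53 members (67.9%) held at least 1 of the ETS-, NRF1- and YY1-type motifs, against 42.1% of open promoters. The share was as high in cytosolic ribosomal protein promoters (67.9%) and was 61.2% in those of respiratory chain genes. The ETS-type motif stood in 17 members (32.1%), against 22.4% of open promoters and 8.86% of all promoters. Matches to the NRF1-type motif were found in 13 members (24.5%, against 17.4% and 6.25%), and to the YY1-type motif in 16 (30.2%, against 10.1% and 6.05%). At least 2 of these 3 occurred together in 10 members (18.9% against 7.40% of open promoters), as ETS with YY1 in Mrpl18, Mrpl27, Mrpl51, Mrps18a and Mrps27, as ETS with NRF1 in Mrpl17, Mrps18b, Mrps21 and Mrps26, and as NRF1 with YY1 in Mrpl32. No member held all 3.

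The other searched motifs stood below or near the level of open promoters, or in few members. GC boxes were in 50.9% of members against 72.1% of open promoters, CCAAT boxes in 45.3% against 42.6%, and CACGTG E-boxes in 9.43% against 10.8%. The ESRR-type AAGGTCA was in 4 members (7.55% against 2.49%), the TATAAA letters in 3 (5.66% against 5.55%) and the THAP11/ZNF143-type ACTACAATT in 0 (0.875% of open promoters). Over all promoters these shares were 35.7%, 37.4%, 7.15%, 4.72%, 13.6% and 0.393% in the order GC box, CCAAT, E-box, ESRR, TATA and THAP11/ZNF143. The ETS-, NRF1- and YY1-type shares were 41.1%, 12.5% and 21.4% in cytosolic ribosomal protein promoters. In those of respiratory chain genes they were 20.9%, 28.4% and 22.4%. The member promoters were rich in CpG: 48 of 53 (90.6%) had an observed to expected CpG ratio of at least 0.6, against 83.9% of open promoters, at a median GC content of 58.3% against 62.3%. A match is a description of letters, and these shares are given without a test.

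**Figure D1:**
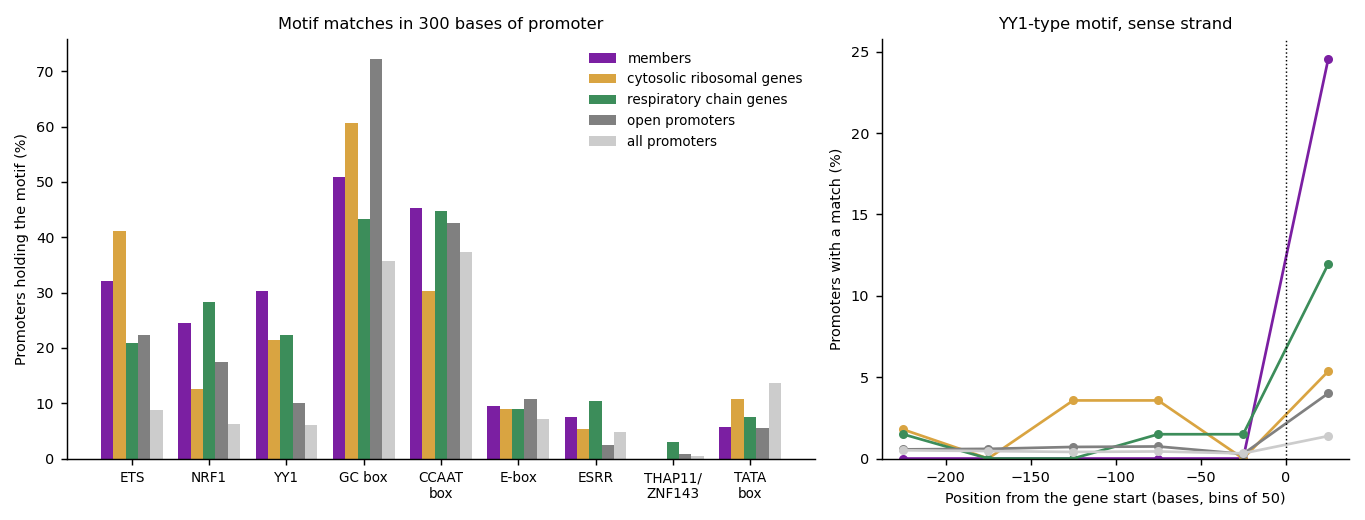
Left, share of promoters (%) with at least 1 match to each motif in 300 bases, for the members (53 promoters), cytosolic ribosomal protein genes (56), respiratory chain genes (67), open promoters (6740) and all promoters (32851); right, share of promoters (%) with a sense-strand YY1-type match by position from the start in bins of 50 bases. The members reach 24.5% in the bin behind the start and 0 in the other bins.

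Heights of members with and without these motifs overlapped. The median mean height was 30.7 in the 17 members with an ETS-type match and 26.1 in the 36 without. It was 27.4 both with and without a YY1-type match, and 27.4 with and 27.3 without an NRF1-type match. Median log2 differences between the sexes, on the scale described with the comparison of the sexes, were -0.66 with and -0.59 without the YY1-type match.

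The open region lay at the gene start in most members. In 54 of 60 a summit, the point of highest coverage in a called peak, lay within 1000 bp of the start, against 69.7% of all genes, 87.1% of the cytosolic ribosomal protein genes and 94.9% of the respiratory chain genes. The region covered the start itself in 40 members (66.7%, with 5879 of 11993 in the whole table). Among the 54, the median summit stood at -18.5 bp, with quartiles of -55.3 and 6.75 bp, and 46 (85.2%) were within 100 bp, against 69.3% of all genes with a region at the start, whose median was -35.0 bp. The measure used linked regions only, and 44 members had 1 region each. Mrps21, at -933 bp, was the member nearest the inside of the window and Mrpl36, at -2465 bp, the nearest outside. These distances use the deposited start, and the RefSeq start of Mrps21 lay 895 bp from it.

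**Figure D2:**
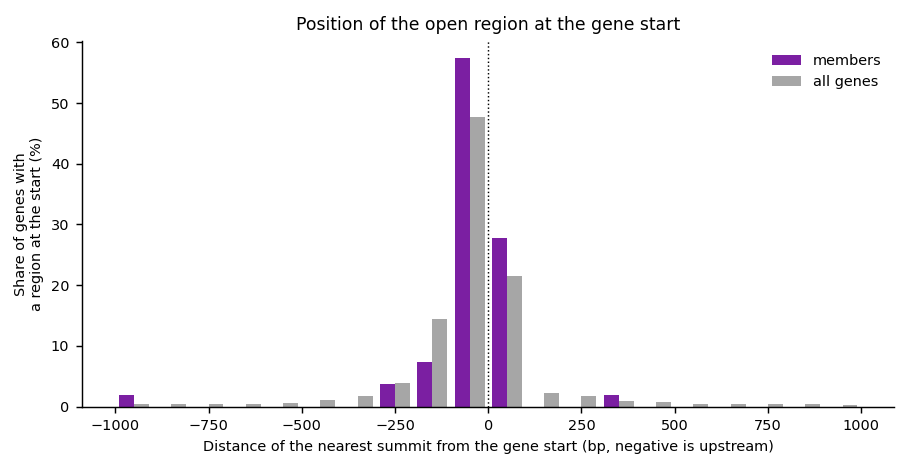
Distance in bp of the nearest summit from the gene start (x axis, bins of 100 bp, negative is upstream) and share (%) of genes with a region at the start (y axis), for 54 members and 8363 genes of the whole table. Members gather in the 100 bp on each side of the start, where 85.2% of them lie.

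For 6 members the measured region was not at their own start, and their heights describe another place. The region of Mrpl36, a homologue of bacterial L36, lay -2465 bp from the start and 12 bp from the start of Ndufs6, a complex I gene. Mrps34 was measured at a region covering the start of Nubp2, -8464 bp away, and Mrps5 at one covering that of Zfp661, -2658 bp away. Mrps18a had a region 18852 bp downstream, past the end of the gene and linked also to Rsph9. For Mrpl53 the regions lay at the starts of Ccdc142 and Mogs, the nearer at 6380 bp, and for Mrpl49 the nearer one stood at -3433 bp, beside Znhit2. Of the 54 members with a region at the start, 40 had 1 region each. In the rest the height averages that region with others, as with regions 7663 and 8146 bp from the start of Mrpl38.

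Many members shared their open region with a neighbour. In 32 of 60 (53.3%) another gene carried exactly the same regions and therefore the same value. This held for 39.5% of all genes, 74.3% of cytosolic ribosomal protein genes and 48.1% of respiratory chain genes. At least 1 region was shared by 76.7% of members and 67.1% of all genes, and 14 members shared none. A neighbour on the other strand, with the shared region within 1000 bp of both starts, was present for 20 members (33.3%), against 18.6% of all genes, 26.5% of genes with a region at the start, 12.9% of cytosolic ribosomal protein genes and 32.9% of respiratory chain genes. Mrps26 and 4930473A02Rik started 9 bp apart, Mrpl27 and Eme1 38 bp, Mrps27 and Ptcd2 (a pentatricopeptide repeat protein of mitochondria) 109 bp, and Mrpl43 and Peo1 (the mitochondrial DNA helicase) 117 bp. Mrpl32 stood 206 bp from Psma2, a proteasome subunit, and Mrpl18 375 bp from Tcp1, a chaperonin subunit. At such promoters the height cannot be assigned to 1 of the genes.

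In level, the members sat in the middle of the table. Their median height, in the order female 1, female 2, male 1 and male 2 used from here on, was 39.3, 30.4, 24 and 14.6, against 38, 30.2, 24 and 14.7 for all genes. Together they held 0.502%, 0.499%, 0.525% and 0.506% of the summed height of all genes. The median member was at percentile 51.9 of mean height, against 59.7 for the cytosolic ribosomal protein genes and 54.1 for the respiratory chain genes. Their range ran from percentile 0.367 to 98.8. A height is per region, so it ranks peaks, not the amount of open DNA per gene.

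The highest members were Mrpl18, Mrpl41, Mrps34, Mrps18b, Mrps16 and Mrpl17. Mrpl18 (chromosome 17, 12911356 to 12916091, mm10) had heights of 82.0 and 82.2 in the females and 58 and 31.6 in the males, with no overlap between the sexes. Those heights correspond to 82, 100, 82 and 43 tags, so that female 1 and male 1 held the same number of tags before scaling. Mrpl41 stood at 78.5, 68.2, 55.1 and 43 as the mean of 2 regions, and its start region alone had summits of 100, 82.2, 77.8 and 69.8. Mrps34, measured at Nubp2, had 77.0, 66.6, 48.8 and 30.1.

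Among the other high members male 2 was not always lowest. Mrps18b had heights of 71.0, 55.9, 41.7 and 48.5, and Mrps16 had 73.0, 63.3, 43.1 and 35.2, without overlap of the sexes in either. Mrpl17, a homologue of bacterial L17, had 68, 37, 45.9 and 45.5, where both males lay between the females. Its region covered the start and was shared with no other gene.

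The lowest members had few tags, and their sexes overlapped except in Mrpl9 and Mrpl15. Mrpl16 was lowest of all, at 10.0, 4.93, 6.36 and 8.08, which are 10, 6, 9 and 11 tags. Mrpl27 stood at 15, 6.58, 8.48 and 12.5, or 15, 8, 12 and 17 tags. At such numbers a change of a few tags reorders the libraries. Mrpl35 had 24, 8.22, 11.3 and 9.55. The height of Mrpl19 was 23, 11.5, 16.3 and 9.55. In Mrpl9 and Mrpl15, both bacterial-type large subunit proteins, the males were below the females, at 23, 14, 10.6 and 6.61 for Mrpl9 and at 14, 22.2, 10.6 and 8.81 for Mrpl15.

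**Figure D3:**
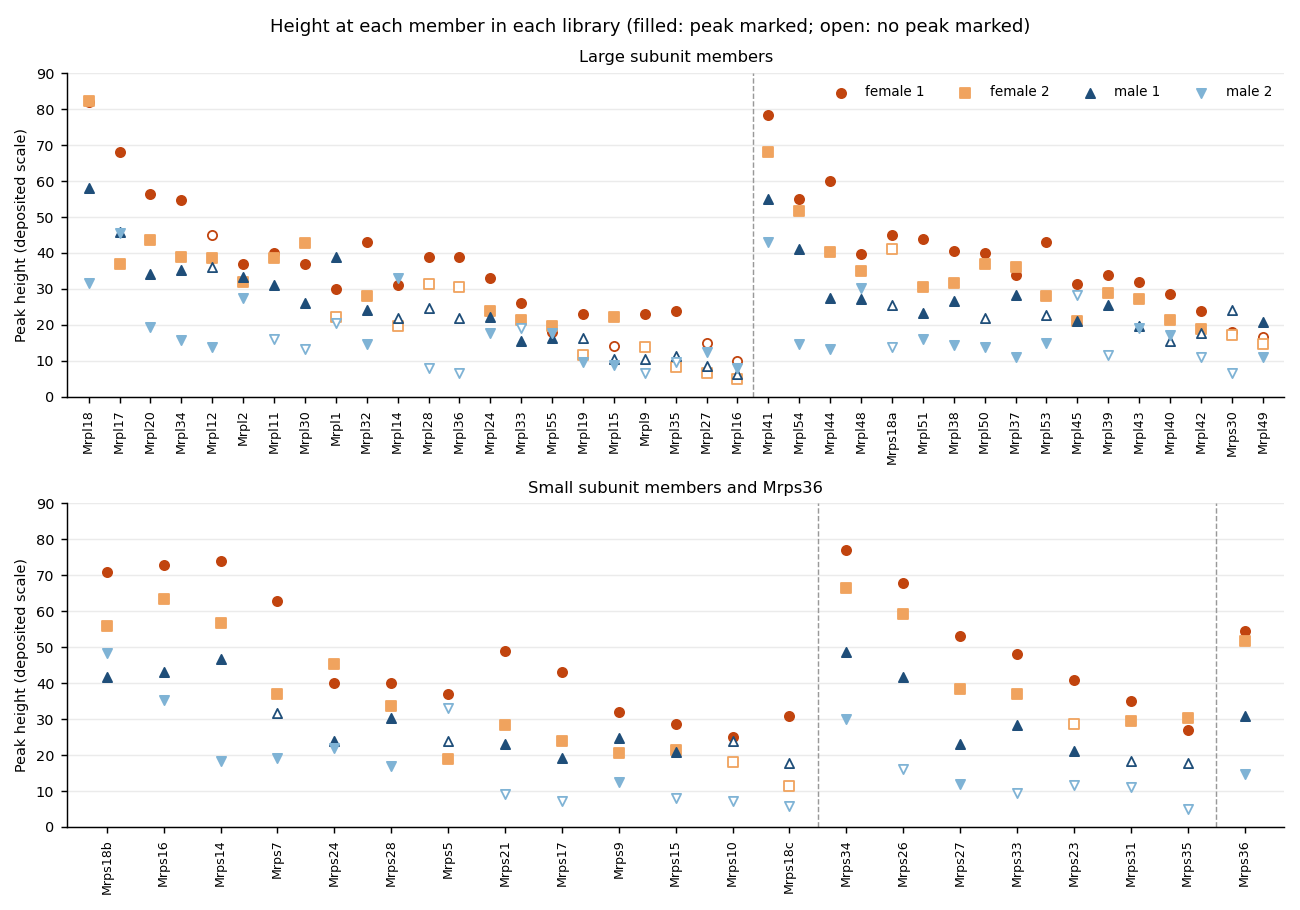
Height (y axis, deposited scale) of each of the 60 members in each library, ordered within role by mean height. In each panel the dashed line separates proteins with bacterial relatives from those added in mitochondria, and the last column is Mrps36. Mrps18a, although a homologue of bacterial S18, is drawn with those added in mitochondria. Conversely, Mrpl55, which has no known bacterial homologue, is drawn with those that have bacterial relatives. Filled symbols mark a called peak and open ones none, and female 1 (circles) is the highest library in 49 members.

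Fewer members had a called peak in each male library than in each female one, as did all genes. A peak was marked in every library for 25 members (41.7%), against 35.9% of all genes, 42.9% of the cytosolic ribosomal protein genes and 35.4% of the respiratory chain genes. In female 1 55 members had a peak, in female 2 45, in male 1 38 and in male 2 36, or 91.7%, 75%, 63.3% and 60.0%, beside 89.7%, 76.7%, 61.2% and 49.1% of all genes. Of the rest, 14 had a peak in 3 libraries, 11 in 2 and 10 in 1. All 25 with a peak everywhere except Mrps34 had a summit within 1000 bp of the start. The mark counts any linked region, however, not the start region alone. At the start region, Mrpl2 had a peak in male 2 only, Mrpl38 in female 2 only, and Mrpl20 and Mrpl24 in every library but male 2.

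**Figure D4:**
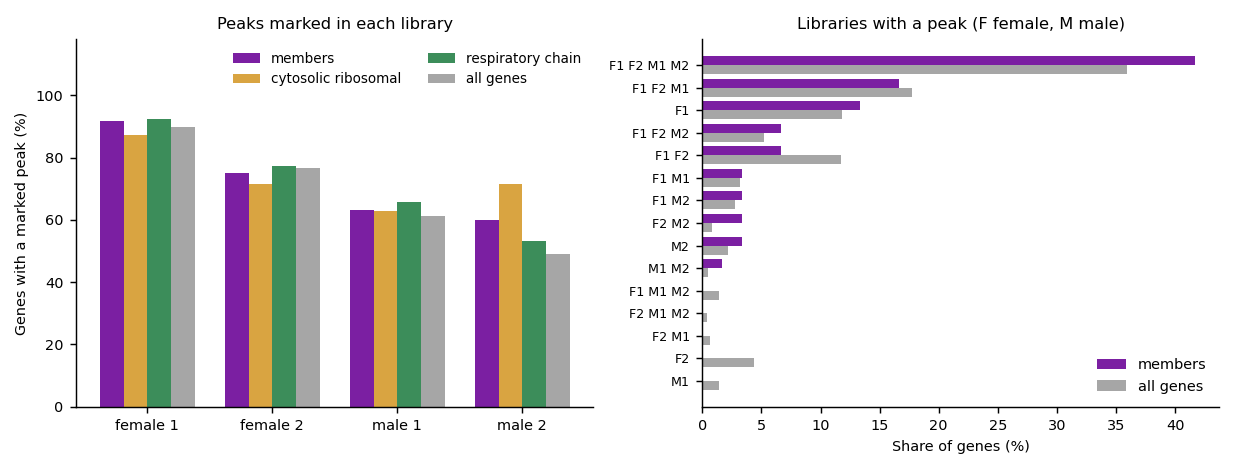
Left, share (%) of members, cytosolic ribosomal protein genes, respiratory chain genes and all genes with a called peak in each library; right, share (%) of members and of all genes by the set of libraries with a peak (F1 and F2 female, M1 and M2 male). Peaks in all 4 libraries are the most common set, at 41.7% of members and 35.9% of all genes.

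For 8 members (13.3%, against 11.8% of all genes) the only peak was in female 1. Mrpl28 had heights of 39, 31.2, 24.7 and 8.08, and Mrpl36 of 39, 30.4, 21.9 and 6.61, so a height near 30 in female 2 did not bring a call there. Mrps18a had 45, 41.1, 25.4 and 14. Mrps18a and Mrps30 are named for the small subunit but sit in the large one. Mrps30 stood at 18, 17.3, 24 and 6.61, with male 1 the highest. Mrps10 had 25, 18.1, 24 and 7.34, and Mrps18c had 31, 11.5, 17.7 and 5.87. The sexes overlapped in these last 3, and Mrpl9 and Mrpl35, the remaining 2, are given above.

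Both females and no male had a peak at Mrpl42, Mrps5, Mrps35 and Mrps31 (6.67% of members, against 11.7% of all genes). Mrps35 had heights of 27, 30.4, 17.7 and 5.14, Mrps31 of 35, 29.6, 18.4 and 11, and Mrpl42 of 24, 18.9, 17.7 and 11, each with both males below both females. Mrps5 differed from them, with 37, 18.9, 24 and 33, so that male 2 had no called peak at a height close to that of female 1. Mrpl12, a protein of the ribosome stalk, had a peak in female 2 and male 2 but not in female 1, at 45, 38.6, 36.1 and 14. A call thus did not follow the height across libraries.

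Males alone had a peak in 3 members. Mrpl27 and Mrpl16, the lowest 2 in height, had theirs in male 2 only (3.33% of members, against 2.15% of all genes). Mrpl49 had a peak in both males and in neither female (1.67%, against 0.475%), at 16.5, 14.8, 20.9 and 11. The regions of Mrpl49 were not at its start, and each was called in a different male. Mrpl14 and Mrpl19 had peaks in female 1 and male 2, and Mrpl1 and Mrps23 in female 1 and male 1. Mrps23 had heights of 41, 28.8, 21.2 and 11.7.

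For the comparison of the sexes, limma was fitted to log2(height + 9) over the whole table with Benjamini-Hochberg adjustment, where adding 9 damps the differences of low heights. No member passed an adjusted p under 0.05 in either direction (0 of 60), where 71 genes of the table (0.592%) were called lower in males and 0 higher. Without the mean-variance trend limma also called 0 members, beside 416 of all genes lower in males (3.47%). In that fit the smallest limma adjusted p of a member was 0.0525. At an unadjusted p under 0.05, 18 of the 60 members had lower values in males and 0 higher (30%, against 31.4% of all genes in either direction). This count was 0 without female 1, 2 without female 2, 36 without male 1 and 1 without male 2, beside 2.48%, 8.25%, 62.7% and 8.22% of all genes. The median log2 difference, male minus female, was -0.63 over the members and -0.63 over all genes, which as a ratio of height + 9 is 1.55-fold in favour of females. Without male 2 the members' median was -0.39, without female 1 it was -0.45, without female 2 -0.74 and without male 1 -0.89. In the fit with all 4 libraries and the trend, the smallest limma adjusted p of a member was 0.108. With the libraries centred on their medians the members' median was -0.02, 0 were called and 6 had an unadjusted p under 0.05 (10%, against 8.02% of all genes). Without male 1, limma called 34 members lower in males, beside 6391 of all genes.

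Both males were below both females in 45 of 60 members (75%), against 76.4% of all genes. Both males were above both females in 0 members, against 0.35% of all genes. After centring these became 12 members lower (21.7% of all genes) and 15 higher (18%). Female 1 was the highest library in 49 members and male 2 the lowest in 48, and male 2 exceeded male 1 in 10 members (16.7%, against 14.3% of all genes). For a single gene, the smallest two-sided p that exact permutation allows here is 0.33.

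By role, the small subunit proteins added in mitochondria had the most negative differences. All 7 (Mrps23, Mrps26, Mrps27, Mrps31, Mrps33, Mrps34 and Mrps35) had both males below both females, as did 76.4% of all genes. Of the 7, 6 had an unadjusted p under 0.05 (31.4% of all genes did) and none passed the adjusted threshold, with a median of -0.96. The median was -0.58 in the 13 small subunit proteins with bacterial relatives, -0.59 in the 17 mitochondrial large subunit proteins and -0.44 in the 22 bacterial-type large subunit proteins. In male 2 the median height of the 7 was at percentile 33.3 of all genes, in male 1 at 46.7, and in the females at 70.7 and 68.3. The bacterial-type large subunit proteins ranged from -0.99 to 0.11, the mitochondrial ones from -1.03 to -0.01, and the bacterial-type small subunit proteins from -0.95 to 0.06. Median mean heights of the groups were 30.7 for the 7, 28.2 for the other small subunit proteins, and 26.1 and 27.4 for the bacterial-type and the mitochondrial large subunit proteins. Mrps18a, although a homologue of bacterial S18, was grouped with the mitochondrial large subunit proteins. Conversely, Mrpl55, which has no known bacterial homologue, was counted with the bacterial-type large subunit proteins. The difference between role groups was not tested, and 1 of the 7, Mrps34, was not measured at its own start.

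**Figure D5:**
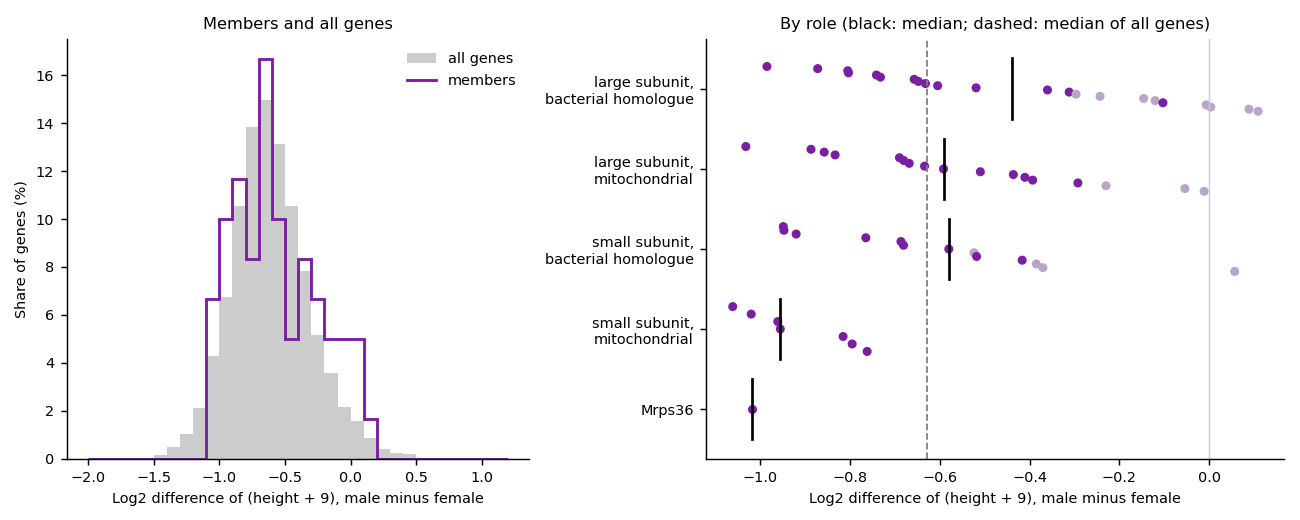
Left, share (%) of members (line) and of all genes (grey) by log2 difference of height + 9, male minus female, in bins of 0.1; right, the difference of each member by role, dark where both males lie below both females, with the role median in black and the median of all genes dashed. The members spread over the same range as most genes, around -0.63, and the 7 mitochondrial small subunit proteins lie between -1.06 and -0.76.

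Mrps27 had the most negative difference. Its heights were 53, 38.4, 23.1 and 12, with means of 45.7 ± 10.4 for the females and 17.5 ± 7.85 for the males (SD, n = 2 per sex). Limma gave -1.06 with an SE of 0.39 and an adjusted p of 0.108, and subtracting the all-gene median leaves -0.43. The value is the mean of 3 regions. At the start, in the region shared with Ptcd2, the summits were 59.0, 44.4, 27.6 and 15.4, and inside the gene, 8465 bp on, they were 73.0, 55.1, 35.3 and 15.4. The third region had a peak in female 1 only.

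The next were Mrpl44, a protein with a ribonuclease III-like fold, Mrps26, Mrps36, Mrpl36 and Mrps33. Mrpl44, measured at its own start with no shared gene, had heights of 60.0, 40.3, 27.6 and 13.2 and a difference of -1.03 with an SE of 0.40 (limma, adjusted p = 0.112). Mrps26 had 68, 59.2, 41.7 and 16.2, and a difference of -1.02. In Mrps36 the heights were 54.5, 51.8, 30.7 and 14.7, with a difference of -1.02, as the mean of 2 regions. The farther region covered the start of Cdk7, 13576 bp from that of Mrps36. The start region alone had summits of 51, 60, 29 and 19.1. Mrpl44, Mrps26 and Mrps36 each kept both males below both females, with male 2 the lowest library. Mrps33 had 48, 37, 28.3 and 9.55, and a difference of -0.96, and Mrpl36, given above, -0.99.

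At the other end, the values of the sexes overlapped. Mrpl1, the homologue of the bacterial stalk protein L1, had heights of 30, 22.2, 38.9 and 20.6, highest in male 1, and a difference of 0.11 with an SE of 0.39 (limma, adjusted p = 0.811). Mrpl14 had 31, 19.7, 21.9 and 33 and a difference of 0.09, and Mrps5 one of 0.06. Both were highest or next to highest in male 2. Mrpl27, Mrpl16 and Mrpl49 were at 0.00, -0.01 and -0.01, and these 3 were among the 7 lowest members in height. Relative to the median of all genes, Mrpl1 stood at 0.74, Mrpl14 at 0.72 and Mrps5 at 0.69.

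Mrpl53, measured at Ccdc142 and Mogs, had heights of 43, 27.9, 22.6 and 15.1 and a difference of -0.67. By the place of the region, the median difference was -0.72 over the 6 members with no region within 1000 bp of the start and -0.62 over the 54 with one. Over the 14 members that shared no region with a gene the median was -0.46, and over the 20 with a neighbour on the other strand -0.59. None of these medians was tested against another.

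Other genes of mitochondrial translation, from lists put together by function, had no limma call either. Of 8 mitoribosomal proteins with another name, 1 had an unadjusted p under 0.05 (12.5%, against 31.4% of all genes), with a median log2 difference of -0.50 beside the -0.63 of all genes. Its 2 members with the smallest p were Aurkaip1, at 43.7, 37.3, 26.4 and 11.5 (-0.87), and Dap3, a small subunit GTPase, at 44.7, 25.5, 22.9 and 15.9 (-0.61). Among 13 translation factors 4 (30.8%) had an unadjusted p under 0.05 and the median was -0.43. Tufm, the mitochondrial elongation factor Tu, stood at 38.5, 39.9, 25.8 and 10.6 (-0.88), and Mtfmt, the methionyl-tRNA formyltransferase, at 29.0, 17.3, 11.3 and 7.34 (-0.79).

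The enzymes that charge tRNAs and those that assemble the ribosome also had no limma call. Of 21 mitochondrial tRNA synthetases and amidotransferase subunits 3 (14.3%, against 31.4% of all genes) had an unadjusted p under 0.05, with a median of -0.50, led by Iars2 (-0.76) and Pars2 (-0.83). Of 22 genes for ribosome assembly and rRNA modification there were 4 (18.2%), with a median of -0.49. Grsf1, an RNA granule protein, had heights of 38, 23.8, 16.3 and 3.67 (-1.13, limma adjusted p = 0.0891), and Rpusd4, a pseudouridine synthase, 40, 41.9, 18.4 and 11 (-1.09).

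Genes for mitochondrial transcription and its nuclear regulators, 17 in all, had a median of -0.70 and 7 with an unadjusted p under 0.05 (41.2%, against 31.4% of all genes). Polrmt, the mitochondrial RNA polymerase, had heights of 69.0, 40.3, 26.2 and 9.55 (-1.28, limma adjusted p = 0.0813), and Tfb2m, its initiation factor, 106.0, 56.7, 43.1 and 23.5 (-1.08). The genes of NRF1, YY1 and GABPA themselves were measured within 1000 bp of their starts. Nrf1 stood at 70.0, 51.8, 29.0 and 23.5 (-0.98), Yy1 at 81.0, 56.7, 56.5 and 28.6 (-0.63) and Gabpa at 33.5, 25.1, 25.8 and 13.6 (-0.44). In Gabpa female 2 was below male 1, so the sexes overlapped.

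The gene groups closest in function had no limma call. Of 70 cytosolic ribosomal protein genes limma called 0, 17 had an unadjusted p under 0.05 (all genes 31.4%) and the median was -0.57, and of 79 respiratory chain and ATP synthase genes it called 0, with 18 and -0.52. Both males were below both females in 68.6% and 64.6% of them, beside 75% of the members. Mammary epithelium, which subcutaneous fat of females can hold, was followed through 5 of 10 markers, the others being not analysed here: limma called 2 of 5 (St14 and Spint2) lower in males, and their summed height was 173.0 and 134.8 in the females and 80.2 and 39.7 in the males. None of the 5 was at 0 in a male. Of 6 fat cell markers it called none, at sums of 239.2 and 200.6 against 113.2 and 85.3. It called none of 3 leukocyte markers (156.5 and 136.9 against 90.5 and 53.7), 2 endothelial markers (49 and 36.6 against 23.3 and 14.3), 1 muscle marker (Mb) and 1 fibroblast marker (Col1a1). Of all these markers, only Cldn3, Grhl1, Lipe, Cebpa and Pnpla2 were measured within 1000 bp of their starts. St14 and Spint2 were read 10967 and 33497 bp away and the others between 3342 and 101883 bp away, so the heights there need not belong to the marker genes. The part of these cell types in the members' values was not tested.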

How the data were processed

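The data were ATAC-seq libraries of 4 samples of mouse subcutaneous white fat. Reads were handled with BWA and MACS2 2.1.0 on mm10, as listed in the submitters' processing notes, and for read filters and a Tn5 shift the sources used here give nothing. As deposited, the signal of a gene is a peak height in tag coverage that the authors averaged across its linked regions, per the file headers. Each library's heights were whole multiples, within 2%, of 1 step (1.0, 0.822, 0.707 and 0.734 for female 1, female 2, male 1 and male 2), which gives tags per peak. Other deposited columns mark a library's peaks, per the file headers. Because heights are coverage, no count test was used.

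Heights were tested as log2(height + 9) with limma 3.58.1 (trend, two-sided, no replicate block) in R 4.3.3, for genes above 0 in at least 2 libraries; on this scale the change of low genes is understated. Limma took the spread wholly from genes of like height. The fit was tested on simulated data. Both the members and all lists were chosen with earlier results of these data known. Members described in full were the 6 highest and 6 lowest in height, the 6 at each end of the sex difference, those with no region within 1000 bp and those without a peak in at least 2 libraries; of each other list, the 2 with the smallest p. Promoters came from RefSeq, GRCm38.p6, matched by gene ID and position for 53 of 60 members; Mrpl15, Mrpl19, Mrpl38, Mrpl54, Mrps28, Mrps34 and Mrps35 had no entry. Both strands were searched, and overlapping matches counted, as for ETS with GC box in Mrpl17 and Mrps16. Python 3.11.15, pandas 2.3.3, numpy 2.4.6 and matplotlib 3.10.9 were used. Alternatives are given with the closing observations.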

Additional observations from a re-analysis of the deposited data

How the results depend on the processing

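Scaling of the libraries moved the most values. The median sex difference over the 60 members, -0.63 as reported, was -0.015 with the libraries centred on their medians, -0.018 with quantile normalization and -0.36 with a pseudocount of 36. In the centred data it was 0.0328 without female 1, 0.00695 without female 2, -0.0325 without male 1 and -0.0167 without male 2, alternatives chosen after seeing the data. Members with both males below both females numbered 45 as reported, 12 when centred and 10 after quantile normalization. Of the members limma called between 0 and 34 when 1 library was left out, the 34 without male 1, and in the centred data without male 1 it called 15 (5 lower in males), beside 803 lower and 1066 higher of all genes (15.6%). Without male 1 a single male library is set against 2 females and is assumed to vary like them. There, centred, the difference of 23 of the 60 members was opposite in sign to the reported one. Among these, higher in male 2, were Mrpl17 (0.73), Mrps18b (0.53), Mrpl2, Mrpl33, Mrpl45, Mrpl48 and Mrpl55. Named members passed the threshold without male 1 (deposited or centred) and with the block described next, and under no other alternative run. With the replicate number as a replicate block limma called 34 members lower in males, beside 6918 of all genes, and with the block and centring 0. The labels share only a number between the sexes, and the correlation across genes of female 1 minus female 2 with male 1 minus male 2 was 0.0166. The pseudocount (1 or 36), the filters, 1 row per set of regions and limma without trend kept 0 members called. Of all genes these settings called from 0, above the 25th percentile of mean height, to 416 (3.47%), without trend.

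Members with a peak in every library fell from 25 to 15 when an interval had to cover at least 50% of the region, and to 15 when the same number of intervals was kept in every library. Within 50 bases before to 50 after the start, 32.1% of member promoters held a GC box, 17% a CCAAT box and 0% the TATAAA letters. Among members with a peak in every library, 71.4% held a GC box and 0% the ESRR-type motif. Other motif shares stayed within the 95% binomial intervals of the reported ones, and 51 and 55 members had a region within 250 and 2500 bp of the start. The cause of these shifts was not tested. Read totals are unknown here, a low height rests on about 10 tags, and with 2 libraries per sex, sex and the library-wide shifts cannot be told apart. Of the members, 46 shared at least 1 region with another gene (76.7%, against 67.1% of all genes), and 32 of them had exactly the regions of another gene.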
